A study of Mus musculus with 4 samples.

Results

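Ccl2, Ccl7, Ccl3, Ccl4, Cxcl1 and Cxcl2, which encode secreted chemokines, and Ccr2, which encodes a chemokine receptor, were followed in single immune cells washed from the peritoneal cavity of wild-type mice. The 7 genes were named as a list out of 33696 genes in the expression matrices, and they were chosen by measured values, namely earlier results of these data in which Ccl2 and Ccl7 were higher in large macrophages on the high-fat diet. Mice of the HFD group had a high-fat diet and mice of the CD group a chow diet, from 4 weeks of age for 3 months. The cells of both groups were collected by peritoneal lavage with serum-free medium and sorted for CD45, the surface marker of leukocytes. Each diet had 1 expression library and 1 library of B-cell receptor contigs, and the labels do not say how many mice were pooled. The diet and the library therefore cannot be told apart, no test was possible, and every interval below covers counting error only.

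Chemokines are small secreted proteins that steer leukocytes along a gradient through G-protein-coupled receptors. CCL2 and CCL7 are ligands of CCR2, which inflammatory monocytes need to leave the bone marrow and enter tissue. CCL3, a ligand of CCR1, and the related CCL4 attract several kinds of leukocyte, while CXCL1 and CXCL2 attract neutrophils through CXCR2. The peritoneal cavity holds a resident population of large macrophages that is GATA6-dependent, and a smaller population of macrophages that takes in cells from blood monocytes.

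A cell barcode counted as a large macrophage where it held 5 or more UMIs (unique molecular identifiers, each 1 captured transcript) of Adgre1, Prg4, Alox15 and Garnl3 together and 2 or fewer of Folr2 and Cbr2. A Folr2 macrophage held 3 or more UMIs of Folr2 and Cbr2, and a T cell held 2 or more of Cd3e, Cd3d and Cd3g. Barcodes with a B-cell receptor contig were left out of all 3 classes and served as a pool of B-lineage cells. The HFD library gave 1297 large macrophages, 186 Folr2 macrophages and 770 T cells among 6684 barcodes kept. The CD library gave 1973 large macrophages, 184 Folr2 macrophages and 1016 T cells among 13069. Large macrophages were deeper in the HFD library, with a median of 11734 UMIs per barcode against 4664 in the CD library. For this reason detection was compared after each barcode had been thinned to 2000 UMIs, which left out 64 HFD and 249 CD large macrophages as too shallow. The 2 libraries had 30 barcode sequences in common.

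Markers that the rules did not use separated large macrophages from T cells, but B-cell transcripts were present in both classes. Gata6, Timd4, Selp, Icam2 and F5, all markers of large peritoneal macrophages, summed to 2628 CPM (counts per 1000000 UMIs of the class) in HFD and 2124 CPM in CD large macrophages. They summed to 104 CPM in HFD and 87.2 CPM in CD T cells, and none of the 5 was at 0 in the large macrophages of either diet. The T-cell genes Trac, Lck, Cd4, Cd8a and Trdc summed to 913 CPM in HFD and 678 CPM in CD T cells, against 3.51 CPM in HFD and 7.49 CPM in CD large macrophages. Most Folr2 macrophages, 180 of 186 in the HFD library and 171 of 184 in the CD library, also held 5 or more UMIs of the large-macrophage genes, so the rules did not part them by these genes. Their check genes Lyve1, Mrc1, Cd163 and Retnla summed to 2504 CPM in HFD and 5889 CPM in CD Folr2 macrophages. In large macrophages the same genes summed to 512 CPM in HFD and 1294 CPM in CD. At least 2 B-cell marker UMIs were held by 36.9% of HFD and 50.6% of CD large macrophages. For T cells these shares were 36.6% in HFD and 56.0% in CD. B-cell markers summed to 580 CPM in HFD T cells and to 2063 CPM in CD T cells, where they exceeded the T-cell genes.

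In large macrophages, 4 of the 7 genes were at least 2-fold higher in HFD than in CD (Ccl2, Ccl7, Ccl3 and Ccl4), and 0 were at least 2-fold lower. Of all 12435 genes with 20 or more UMIs over both sums, 3.47% were at least 2-fold higher and 6.64% at least 2-fold lower. The median log2 ratio of the 7 genes was 1.25, beside -0.05 for all genes tested. In Folr2 macrophages 3 genes were higher (Ccl2, Ccl7 and Ccl4) and 1 was lower (Ccr2), where the shares over 9757 genes were 3.67% and 4.63%. In T cells 5 of the 7 genes had enough UMIs, of which 1 (Ccl2) was higher and 0 were lower, beside shares of 2.42% and 5.62% over 11070 genes. Because the genes had been picked with these ratios known, the counts describe the list and support nothing.

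**Figure D1:**
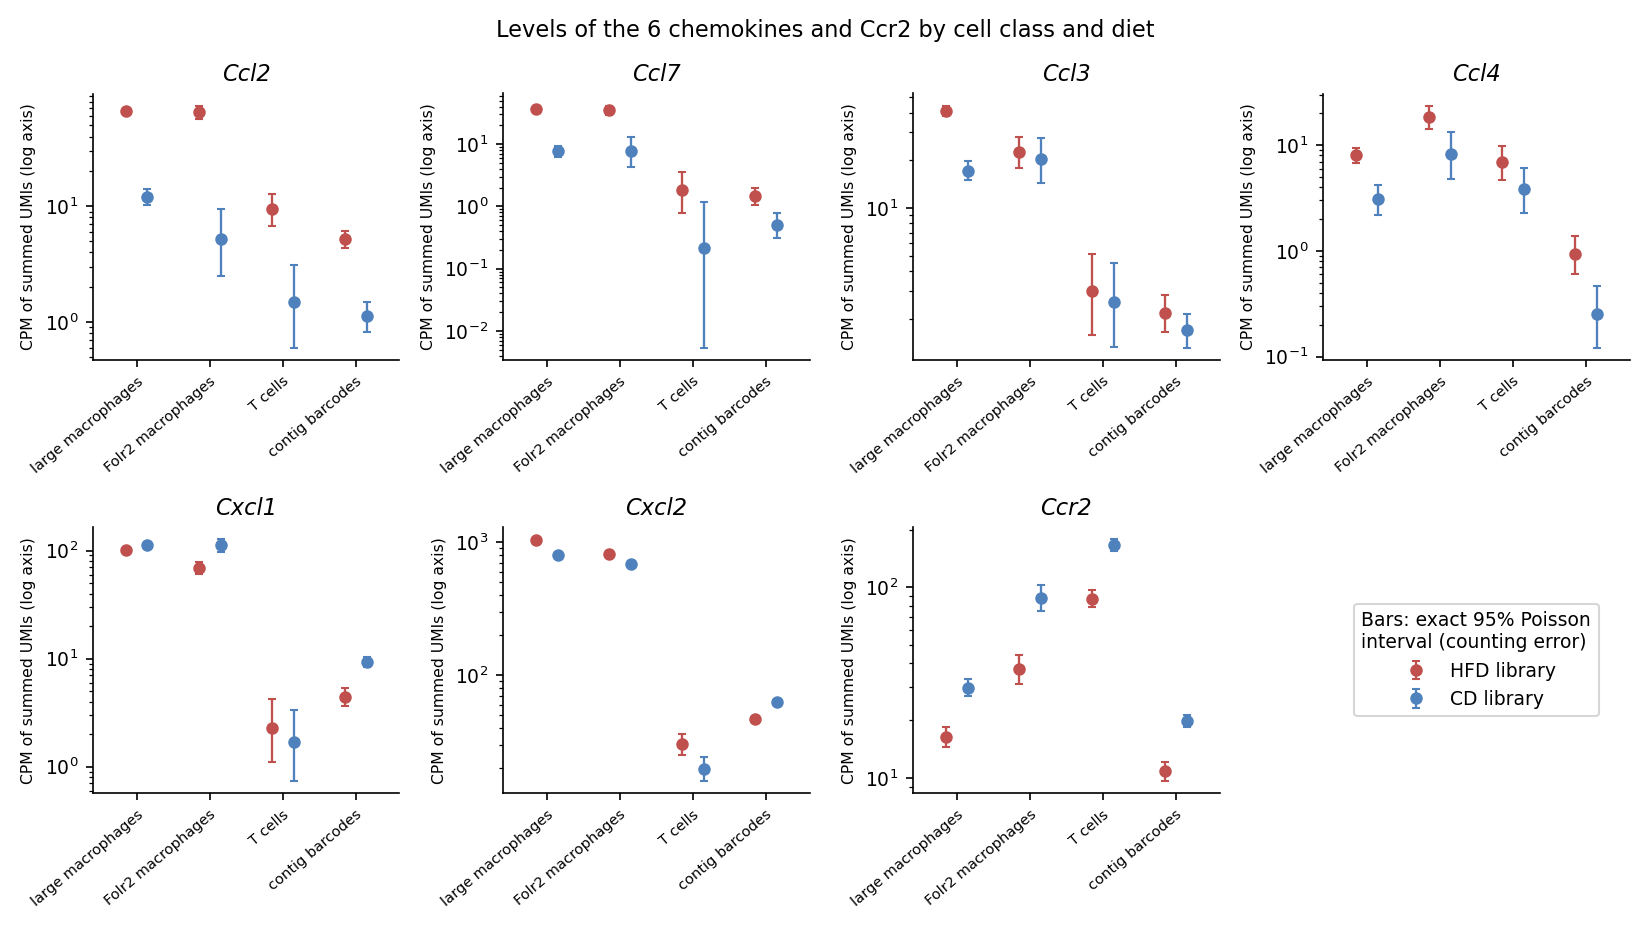
Level of each gene in large macrophages, Folr2 macrophages, T cells and barcodes with a B-cell receptor contig, as CPM of the summed UMIs on a log axis, with HFD left of CD and bars for the exact 95% Poisson interval. Ccl2 and Ccl7 lie higher in HFD in all 4 pools, and Ccr2 lies lower in HFD in all 4.

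Ccl2, the main monocyte attractant of the family, stood at 66.8 CPM in HFD large macrophages, from 1140 UMIs, and at 12.0 CPM in CD large macrophages, from 148 UMIs. The log2 ratio was 2.47 (95% interval 2.22 to 2.73), or 5.54-fold. Folr2 macrophages summed to almost the same HFD level, 65.0 CPM, against 5.19 CPM in CD from 10 UMIs, a log2 ratio of 3.65 (2.74 to 4.73). The HFD sum was uneven, and 2 barcodes held 37 and 24 of its 224 UMIs. The 6 HFD Folr2 macrophages with fewer than 5 large-macrophage UMIs had 460 CPM from 35 UMIs, and the 13 in CD held 0. The other Folr2 macrophages, 180 in HFD and 171 in CD, had 56.1 CPM in HFD and 5.50 CPM in CD (3.35, 2.44 to 4.44). The HFD levels of the macrophage classes overlapped within counting error. Barcodes of no class followed with 22.6 CPM in HFD and 1.98 CPM in CD, then T cells with 9.40 CPM in HFD and 1.49 CPM in CD, and contig barcodes with 5.17 CPM in HFD and 1.12 CPM in CD. Among the barcodes of no class, those without dendritic-cell, natural killer or B-cell markers, 70 in HFD and 142 in CD, had 174 CPM in HFD (16 positive barcodes) and 13.2 CPM in CD (3 positive barcodes). That HFD level lay above both macrophage classes, but 2 of the 16 positive barcodes held 27 and 25 of the 87 UMIs. Of the 41 UMIs in HFD T cells, 2 barcodes held 27 and 10. Of all Ccl2 UMIs in barcodes kept, 67.2% in the HFD and 55.4% in the CD library lay in large macrophages.

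Ccl7, a second ligand of CCR2, had 37.2 CPM in HFD and 7.65 CPM in CD large macrophages, from 636 and 94 UMIs, with a log2 ratio of 2.28 (1.97 to 2.61). In Folr2 macrophages it had 34.8 CPM in HFD and 7.79 CPM in CD (log2 ratio 2.16, 1.38 to 3.04). Summed over each class, the Ccl7 level was thus alike in both macrophage classes within each diet. The 6 HFD Folr2 macrophages with fewer than 5 large-macrophage UMIs had 210 CPM from 16 UMIs, and the 13 in CD held 0. The other Folr2 macrophages had 30.9 CPM in HFD and 8.25 CPM in CD (1.91, 1.12 to 2.79). Outside the macrophages Ccl7 had few UMIs. The 70 HFD barcodes of no class and no other marker held 17 UMIs in 5 barcodes, or 33.9 CPM, near the macrophage level, and the 142 in CD held 0. Contig barcodes held 1.47 CPM in HFD and 0.507 CPM in CD, and T cells held 8 UMIs in HFD and 1 UMI in CD.

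Ccl3, a ligand of CCR1, had 41.2 CPM in HFD and 17.3 CPM in CD large macrophages (log2 ratio 1.25, 1.03 to 1.48). In Folr2 macrophages it had 22.7 CPM in HFD and 20.3 CPM in CD, and the interval of that ratio ran from -0.41 to 0.75. Ccl4, a closely related CC chemokine, was sparse: 8.02 CPM in HFD and 3.09 CPM in CD large macrophages, from 137 and 38 UMIs (log2 ratio 1.38, 0.85 to 1.93). One HFD barcode held 30 of the 137 UMIs. In the HFD library barcodes of no class held 203 Ccl4 UMIs, 43.8% of all, and 1 of these barcodes held 114. Among them, 43 barcodes with 2 or more UMIs of the natural killer genes Ncr1 and Klrb1c held 180. Barcodes with these genes had 1156 Ccl4 CPM in HFD and 96.9 CPM in CD. Their Ccl3 level was 193 CPM in HFD and 21.5 CPM in CD, from 30 and 2 UMIs. Both HFD levels lay above those of large macrophages. Without barcodes that held 2 or more B-cell marker UMIs or any Cd3 UMI, the log2 ratios in large macrophages were 0.88 for Ccl3 and 0.73 for Ccl4, under 2-fold. With no B-cell marker or Cd3 UMI at all they were 1.48 (1.04 to 1.95) for Ccl3 and 2.21 (1.09 to 3.58) for Ccl4, beyond 2-fold. By depth, the Ccl4 ratio was 3.31 under 5000 UMIs, 3.34 from 5000 to 10000, -0.06 from 10000 to 20000 and 1.07 from 20000 up, and the intervals of the last 2 ranges included 0.

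In large macrophages Cxcl1 and Cxcl2 differed less between the diets than Ccl2, Ccl7, Ccl3 and Ccl4. Cxcl2 was found in most large macrophages of both diets, 83.4% of HFD and 68.1% of CD barcodes before thinning. Its level was 1039 CPM in HFD and 795 CPM in CD, a log2 ratio of 0.39 (0.35 to 0.42). Without barcodes with 2 or more B-cell marker UMIs or any Cd3 UMI that ratio was 0.08, and in Folr2 macrophages it was -0.17. With no B-cell marker or Cd3 UMI at all, the Cxcl2 ratio in large macrophages was 0.22 (0.15 to 0.30). Cxcl1 had 101 CPM in HFD and 114 CPM in CD (log2 ratio -0.17, -0.27 to -0.07). Its ratio was 0.05 without the 1% of barcodes with the most Cxcl1 UMIs, which held 22.5% of them in HFD and 34.1% in CD. Without barcodes with 2 or more B-cell marker UMIs or any Cd3 UMI it was -0.77, and with no such UMI at all -0.47 (-0.66 to -0.27). In Folr2 macrophages Cxcl1 had 68.8 CPM in HFD and 112 CPM in CD (log2 ratio -0.70, -0.97 to -0.43), and Cxcl2 had 815 CPM in HFD and 682 CPM in CD (0.26, 0.16 to 0.35).

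The 250 bases before the start of Cxcl1 and Cxcl2 are shown because these neighbouring genes stayed under a 2-fold difference in large macrophages. Ccl2, Ccl7, Ccl3 and Ccl4 did not, and of these only Ccl3 had a matched sequence and is shown. In Folr2 macrophages Ccl3 also stayed under 2-fold (log2 ratio 0.16). So did Ccr2 in large macrophages (-0.85), and its matched sequence is not printed. This grouping changed with the barcodes used. In large macrophages Ccl3 had 0.88 without barcodes with 2 or more B-cell marker UMIs or any Cd3 UMI. Cxcl1 had -1.13 (-2.10 to -0.29) in those with no cell cycle UMI. The part of these sequences in the diet ratios was not tested. RefSeq promoter sequences (build GRCm38.p6) matched 4 of the 7 genes, and Ccl2, Ccl7 and Ccl4 had none. Capitals mark matches to the NF-kB motif on either strand, a binding sequence of the transcription factor family that drives many chemokine genes.
Cxcl1 (chr5:90890995-90891244, plus strand): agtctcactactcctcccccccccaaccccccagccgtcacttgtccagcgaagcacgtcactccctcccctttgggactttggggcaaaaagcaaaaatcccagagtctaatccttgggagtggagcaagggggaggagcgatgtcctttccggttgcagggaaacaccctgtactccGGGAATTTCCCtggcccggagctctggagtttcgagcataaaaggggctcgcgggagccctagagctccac
Cxcl2 (chr5:90903649-90903898, plus strand): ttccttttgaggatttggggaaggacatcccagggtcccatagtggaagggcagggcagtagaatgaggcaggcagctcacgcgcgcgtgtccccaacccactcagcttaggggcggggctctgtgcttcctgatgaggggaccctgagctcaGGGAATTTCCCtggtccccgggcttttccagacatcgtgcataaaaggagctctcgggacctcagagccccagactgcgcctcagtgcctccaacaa
Ccl3 (chr11:83649379-83649628, minus strand): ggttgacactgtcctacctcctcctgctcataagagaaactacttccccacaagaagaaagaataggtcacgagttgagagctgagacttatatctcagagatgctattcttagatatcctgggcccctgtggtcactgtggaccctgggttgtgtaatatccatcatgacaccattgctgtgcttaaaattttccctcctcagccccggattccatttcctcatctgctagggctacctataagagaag
Cxcl1 and Cxcl2 each held 2 overlapping matches, within the 14 bases GGGAATTTCCCTGG that both windows share, which begin 71 bases before the start of Cxcl1 and 97 bases before that of Cxcl2. The windows of Ccl3 and Ccr2 held 0 matches. Of 32851 windows of the same length, 7.25% held the motif. The AP-1 motif TGANTCA was searched in the same way, was in 0 of the 4 windows and in 6.75% of all.

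**Figure D2:**
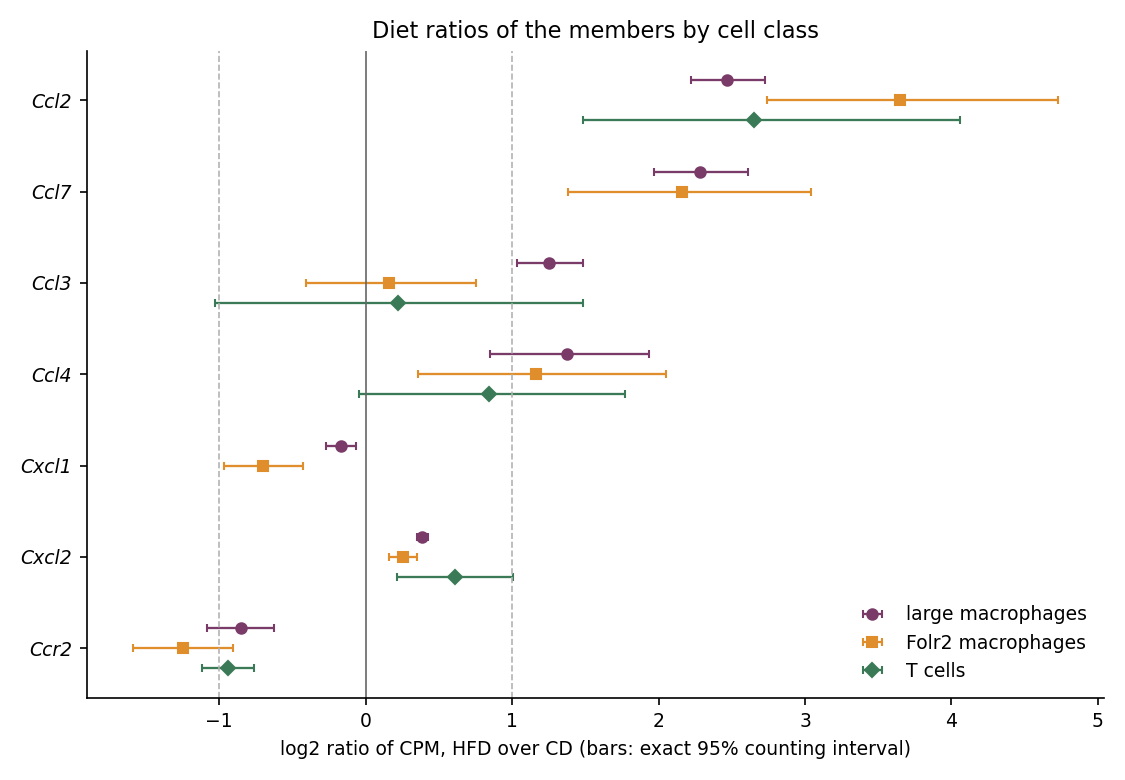
log2 ratio of CPM, HFD over CD, for each gene in large macrophages (circles), Folr2 macrophages (squares) and T cells (diamonds), with exact 95% counting intervals; dashed lines mark 2-fold, and a gene with under 20 UMIs over both libraries is not drawn. Ccl2 and Ccl7 lie beyond 2-fold in both macrophage classes, and Ccr2 is below 0 in all 3 classes.

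The question of whether a few cells or all cells carried the higher Ccl2 and Ccl7 was asked barcode by barcode. Before thinning, 310 of 1297 HFD large macrophages (23.9%, exact interval 21.6 to 26.3%) and 89 of 1973 CD large macrophages (4.51%, 3.64 to 5.52%) held a Ccl2 UMI. Ccl7 was found in 169 HFD (13.0%) and 45 CD (2.28%) large macrophages. Most large macrophages of either diet thus held no UMI of these genes.

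Within the positive barcodes the UMIs were uneven. In HFD large macrophages 139 barcodes held 1 Ccl2 UMI, 80 held 5 or more and 26 held 10 or more, with a highest value of 34. In CD large macrophages 62 barcodes held 1 Ccl2 UMI, 5 held 5 or more and 1 held 10. For Ccl2, 50% of the class's UMIs lay in 46 HFD barcodes (3.55%) and in 21 CD barcodes (1.06%). For Ccl7, 50% lay in 27 HFD barcodes (2.08%) and in 9 CD barcodes (0.456%). More HFD than CD barcodes thus held these UMIs, but these counts were not matched for depth or for the number of UMIs of the gene.

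**Figure D3:**
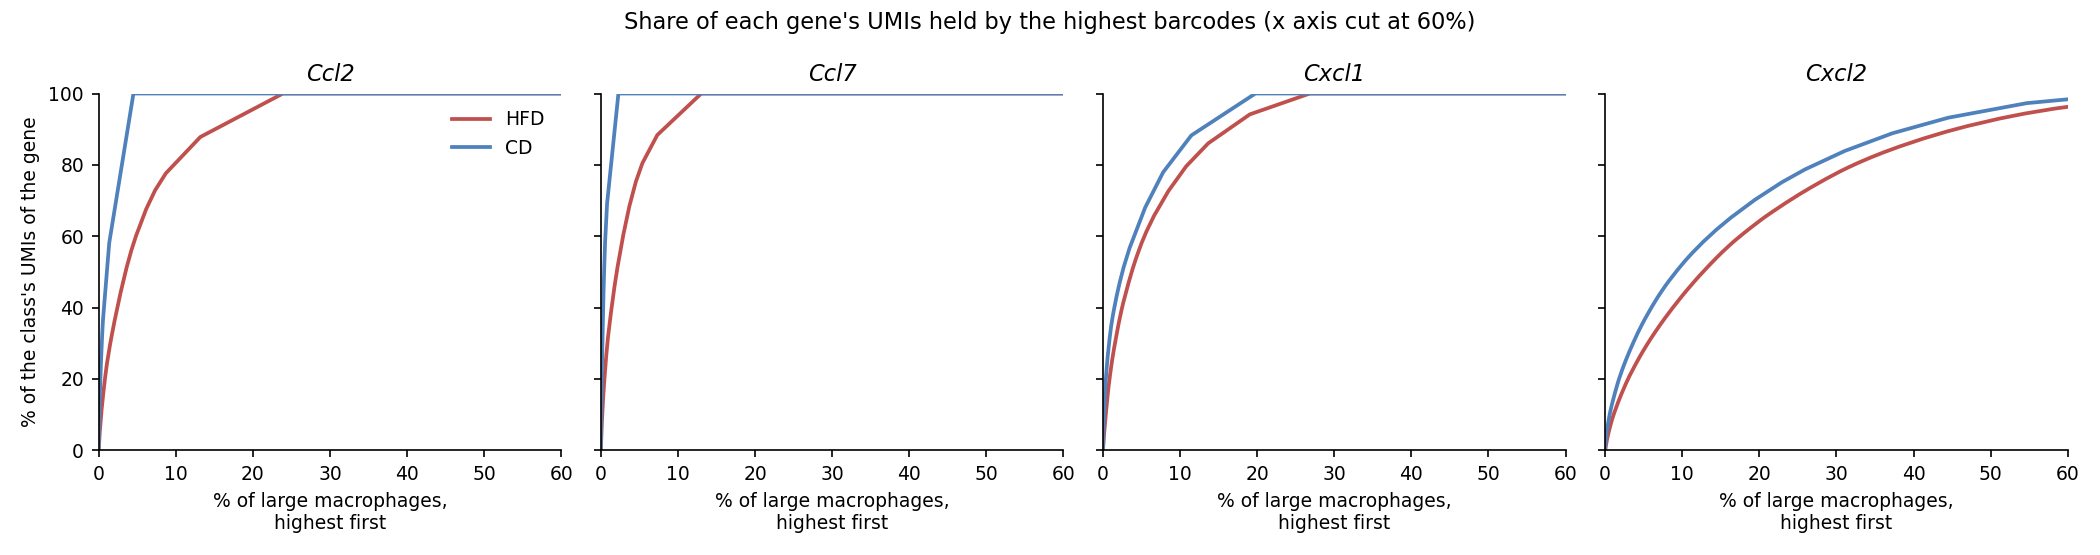
Cumulative share of the UMIs of Ccl2, Ccl7, Cxcl1 and Cxcl2 held by large macrophages ordered from the highest barcode down, with the x axis drawn to 60% of barcodes. The Ccl2 and Ccl7 lines reach 100% at 23.9% and 13.0% of barcodes in HFD and at 4.51% and 2.28% in CD.

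Detection at equal depth gave the same order. After thinning to 2000 UMIs, Ccl2 was found in 108 of 1233 HFD large macrophages (8.76%) and in 36 of 1724 CD large macrophages (2.09%), a difference of 6.67 percentage points (Newcombe interval 5.02 to 8.47). Ccl7 was found in 6.57% of HFD and 0.870% of CD large macrophages (difference 5.70, 4.33 to 7.26), and Ccl3 in 6.97% of HFD and 2.38% of CD large macrophages (4.60, 3.06 to 6.27). A second random thinning gave differences of 4.47 points for Ccl7 and 3.67 points for Ccl3, and at 10000 to 20000 UMIs per barcode the Ccl3 difference was 0.11 points (-3.03 to 2.90). Ccl4 was found in 1.54% of HFD and 0.464% of CD large macrophages. Cxcl2 was found in 66.1% of HFD and 55.7% of CD large macrophages (difference 10.4, 6.86 to 13.9). For Cxcl1 the shares were 9.89% in HFD and 11.7% in CD, and the interval of the difference, -3.99 to 0.53, included 0. Contig barcodes, which should lack macrophage chemokines, gave a Ccl2 share of 0.502% in HFD and 0.144% in CD at the same 2000 UMIs, from median depths of 5983 and 4628 UMIs. The Ccl2 share of large macrophages lay above this background in both diets. In thinned Folr2 macrophages Ccl2 was found in 9.14% of HFD and 0.546% of CD barcodes (difference 8.59, 4.42 to 13.6). That CD share rested on 1 barcode. For Ccl7 the Folr2 shares were 6.45% in HFD and 2.19% in CD, and the interval of the difference, -0.01 to 8.94, included 0.

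Large macrophages were also set side by side within 4 ranges of depth. Ccl2 was higher in HFD in each range, with log2 ratios of 2.21 under 5000 UMIs, 2.17 from 5000 to 10000, 2.47 from 10000 to 20000 and 2.72 from 20000 up. Ccl7 gave 2.49, 2.25, 2.38 and 1.30 in the same order, and all 8 intervals lay above 0. From 10000 to 20000 UMIs, 25.8% of 422 HFD and 7.02% of 299 CD barcodes held Ccl2, a 3.68-fold difference in share. The positive barcodes of this range held a mean of 3.72 Ccl2 UMIs in HFD and 2.33 in CD, a 1.60-fold difference. For Ccl7 in this range the share was 4.19-fold and the mean per positive barcode 1.32-fold higher in HFD. The larger of these factors was the number of positive barcodes, except for Ccl2 from 20000 UMIs up, where the CD library had 43 barcodes and 7 positive ones. Had the HFD Ccl2 UMIs of the 10000 to 20000 range been spread in proportion to depth, 61.2% of the barcodes would have held 1 or more, against 25.8% measured; in CD the same calculation gave 15.1% against 7.02%.

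**Figure D4:**
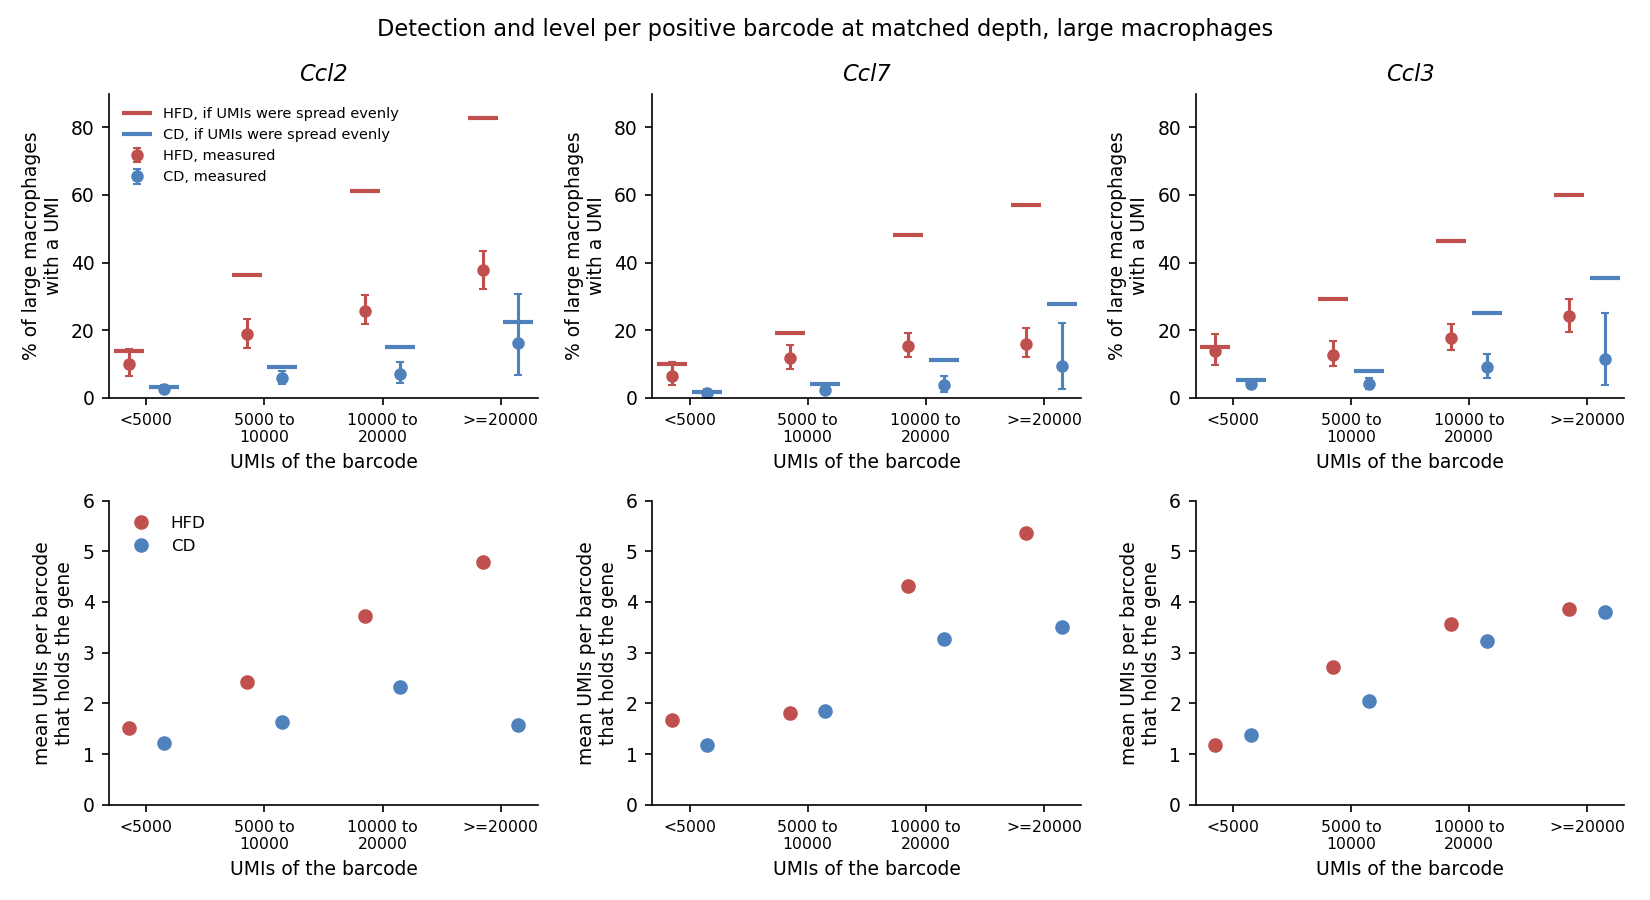
Top, share of large macrophages with a UMI of Ccl2, Ccl7 or Ccl3 in 4 ranges of UMIs per barcode (points, with exact 95% binomial intervals) and the share had the UMIs been spread in proportion to depth (dashes). Bottom, mean UMIs per positive barcode; HFD stands left of CD, and HFD points lie above CD points in each top panel.

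By detection, then, the higher Ccl2 and Ccl7 lay neither in a handful of barcodes nor evenly over the class. Their UMIs were found in a minority of large macrophages, and the share with a UMI was larger in HFD. The Ccl2 share rose with depth, from 9.96% of HFD barcodes under 5000 UMIs to 37.8% from 20000 UMIs up. In CD it rose from 2.64% to 16.3%. Detection therefore cannot tell more expressing cells from a higher level in cells that already expressed the genes. A barcode with no UMI can still have come from a cell with transcripts below capture. At the edge of the class rule the levels were thinly counted. HFD barcodes with 5 or 6 UMIs of the 4 large-macrophage genes had 58.0 Ccl2 CPM and those with 3 or 4 had 81.1 CPM. The CD barcodes at the edge held 0 and 2 Ccl2 UMIs.

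Several marker lists differed between the large macrophages of the diets as well. B-cell markers, 6 genes of which none was at 0, summed to 225 CPM in HFD and 964 CPM in CD. Folr2-macrophage markers (Lyve1, Mrc1, Cd163 and Retnla) summed to 512 CPM in HFD and 1294 CPM in CD. The 19 cell cycle genes summed to 991 CPM in HFD and 629 CPM in CD. Of these, 14 were at least 2-fold higher in HFD, beside 3.47% of all genes measured. In the whole class the log2 ratios were 2.47 for Ccl2 and 2.28 for Ccl7, and barcodes cut on some of these lists gave higher and lower values. With no B-cell marker or Cd3 UMI at all, in 411 HFD and 449 CD barcodes, log2 was 2.74 for Ccl2 and 2.93 for Ccl7. With Folr2 and Cbr2 at 0 it was 2.63 and 2.48, and without any UMI of 7 proliferation genes, in 956 HFD and 1872 CD barcodes, 2.57 and 2.40. With fewer than 2 B-cell marker UMIs and no Cd3 UMI, in 781 HFD and 931 CD barcodes, it was 2.23 and 1.90. That Ccl7 value lay below the interval of the whole class (1.97 to 2.61). Without any UMI of the 19 cell cycle genes, in 71 HFD and 305 CD barcodes, Ccl2 had 2.27 (1.17 to 3.41). Ccl7 there had 2.13 (-0.43 to 4.91), from 4 and 3 UMIs. The part of the remaining differences was not tested.

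Ccl2 and Ccl7 were found in the same barcodes more often than the product of their shares. Of 1233 thinned HFD large macrophages, 25 held both, 3.52 times the product, and before thinning 53.8% of Ccl7-positive barcodes also held Ccl2. Over 3804 genes found in 5% to 50% of these barcodes, the median ratio with Ccl2 was 0.97, the 95th percentile was 1.44, and 4 genes reached 2. In CD only 1 thinned barcode held both, 3.19 times the product. Before thinning, 91 HFD and 6 CD barcodes held both, 2.25 and 2.96 times the product. Ccl3 and Ccl4 were together in 5 thinned HFD and 2 thinned CD barcodes, 3.77 and 10.5 times the product. Before thinning the Ccl3 and Ccl4 ratios were 1.94 in HFD and 7.05 in CD, from 19 and 7 barcodes. Ccl2 and Ccl3 were not linked in this way in HFD, with 7 barcodes and a ratio of 0.93, although both were higher in HFD. Cxcl1 and Cxcl2 were together in 97 HFD and 160 CD barcodes, with ratios of 1.20 and 1.43. At least 2 of the 6 chemokines were found in 21.7% of HFD and 11.8% of CD thinned large macrophages. These shares were not set against the product of the single shares, and Cxcl2 alone was in 66.1% of HFD and 55.7% of CD barcodes. They therefore do not show joint detection beyond that of the single genes.

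**Figure D5:**
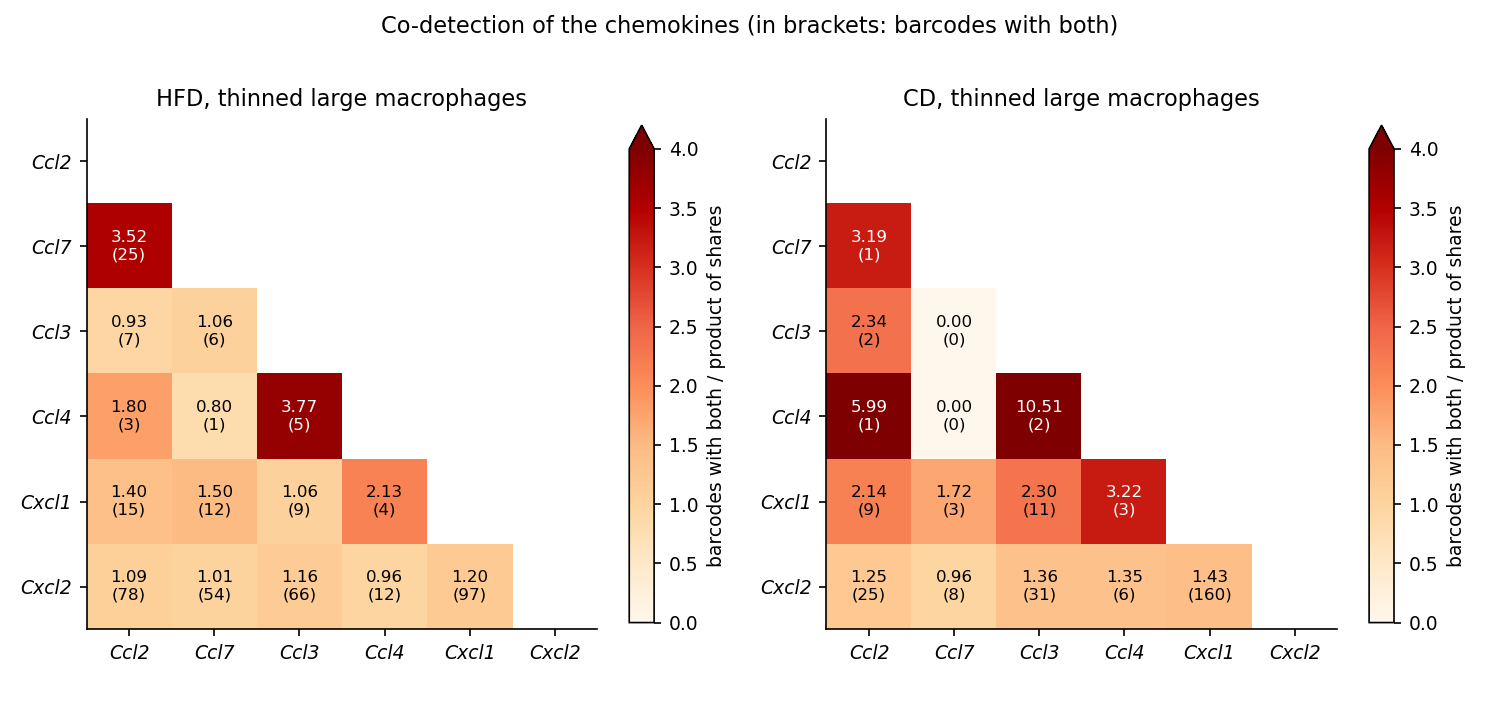
Number of thinned large macrophages with both chemokines divided by the product of their shares, HFD left and CD right, with the number of barcodes in brackets. The Ccl2 and Ccl7 pair stands at 3.52 in HFD with 25 barcodes; several CD values rest on 0 to 3 barcodes.

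Thinned large macrophages with a UMI of Ccl2 or Ccl7, 164 in HFD and 50 in CD, were set against those with neither. Of 762 genes ranked in HFD, the highest log2 ratios were those of Ly6a (0.97), Vsig4, a complement receptor (0.82), Mlxipl, a carbohydrate-responsive transcription factor (0.78), Lpl, lipoprotein lipase (0.72), and Timd4, a phosphatidylserine receptor of resident macrophages (0.64). Bin1, Znhit1, 1700037H04Rik, Ubald2 and Vmn2r26 followed at 0.58 to 0.49. In CD, Timd4 also had 0.64, whereas Ly6a had -0.72 and Vsig4 -0.35, both with intervals that included 0. The 20 immediate early genes summed to 6671 CPM in positive and 6270 CPM in negative HFD barcodes, and the 25 NF-kB and cytokine genes to 3088 and 2968 CPM. Median depths of positive and negative barcodes were 12538.5 and 12338 UMIs in HFD. The ranks describe these barcodes, since the same cells chose and measured the genes.

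Other genes of the same families in large macrophages did not follow Ccl2 and Ccl7. Of 11 further chemokines with enough UMIs, Xcl1 included, 1 was at least 2-fold higher by ratio (Cxcl3, a neutrophil attractant, 1.52 CPM in HFD and 0.407 CPM in CD) and 1 at least 2-fold lower (Cxcl13, a B-cell attractant, 571 CPM in HFD and 3778 CPM in CD). Xcl1, a chemokine of lymphocytes, had 63 UMIs in HFD and 0 in CD, at least 15.1-fold higher against a floor of 3 UMIs in CD, but 58 of the 63 came from 1 barcode. Pf4, a platelet and macrophage chemokine, had a log2 ratio of 0.73, Ccl24, an eosinophil attractant, one of -0.91, and Cxcl14 one of -0.90. Their median over the list was -0.31. Of 9 chemokine receptors measured 0 were higher and 4 lower, namely Cxcr6, Cxcr4, Ccr7 and Ccr6. Over all genes measured in this class, 3.47% were at least 2-fold higher and 6.64% at least 2-fold lower. Ackr3, a scavenging receptor, had 49.2 CPM in HFD and 40.8 CPM in CD, and Ccr1, a receptor of CCL3, had 228 CPM in HFD and 241 CPM in CD. Ccr7 and Ccr6, which B cells also carry, had 7.26 and 0.761 CPM in HFD and 37.5 and 2.93 CPM in CD, beside the lower B-cell markers.

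Neither inflammatory list moved as a block. The shares over all genes measured in large macrophages were 3.47% at least 2-fold higher and 6.64% at least 2-fold lower. Of 23 NF-kB and cytokine genes measured, 1 was at least 2-fold higher (Ptgs2, from 16 and 4 UMIs) and 3 lower (Il1b, Cd83 and Socs3), with a median log2 ratio of -0.04. Il1a, an alarmin cytokine, had 7.14 CPM in HFD and 3.66 CPM in CD, and Il6 had 11.5 and 7.24 CPM. Of 20 immediate early genes, 3 were at least 2-fold higher and 0 lower, with a median of -0.08. These were Nr4a1 (87.8 CPM in HFD and 34.6 CPM in CD), Klf4 (109 and 52.7 CPM) and Egr3, while Dusp2, Ier5 and Dusp1 had the lowest ratios, -0.84, -0.54 and -0.40.

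Ccr2, the receptor of CCL2 and CCL7, went the other way in the 3 classes. In T cells it had 87.1 CPM in HFD and 167 CPM in CD, from 380 and 783 UMIs, a log2 ratio of -0.94 (-1.12 to -0.76). In Folr2 macrophages it had 37.2 CPM in HFD and 88.3 CPM in CD (-1.25, -1.59 to -0.91). Folr2 macrophages with fewer than 5 large-macrophage UMIs, 6 in HFD and 13 in CD, had 499.6 CPM in HFD and 518 CPM in CD, and the others had 26.7 CPM in HFD and 63.2 CPM in CD. In large macrophages it had 16.5 CPM in HFD and 29.7 CPM in CD (-0.85, -1.08 to -0.62), and 2 HFD barcodes held 49 and 44 of the 281 UMIs. Its ratio there was -0.21 (-0.74 to 0.34) in barcodes with no B-cell marker or Cd3 UMI. At least 3 Ccr2 UMIs were seen in 18 HFD and 43 CD large macrophages. These held more dendritic-cell marker transcripts than barcodes with no Ccr2 UMI: 58.2 against 4.52 CPM in HFD, and 76.9 against 16.8 CPM in CD. These sums rested on 22 HFD and 44 CD UMIs, and 16.7% of the HFD and 11.6% of the CD barcodes held 2 or more of them. Monocyte markers were not higher in the same comparison, with 182 against 295 CPM in HFD and 533 against 559 CPM in CD. Large-macrophage markers were lower, with 1500 against 2672 CPM in HFD and 995 against 2223 CPM in CD.

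At 2000 UMIs per barcode, Ccr2 was found in 10.5% of 730 HFD and 18.4% of 860 CD T cells, a difference of -7.82 points (-11.2 to -4.37). In Folr2 macrophages the shares were 2.69% in HFD and 11.5% in CD (-8.79, -14.4 to -3.62), and in large macrophages 1.70% and 3.36% (-1.66, -2.79 to -0.50). Contig barcodes gave 1.06% in HFD and 2.08% in CD, against intervals of 1.06 to 2.59% in HFD and 2.56 to 4.33% in CD large macrophages. The CD large-macrophage interval lay above that of CD contig barcodes (1.76 to 2.45%), and the HFD intervals overlapped. The T-cell shares lay well above both.

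The Ccr2 level was lower in HFD in each T-cell subset cut by receptor and coreceptor genes. T cells with a Trdc UMI, a gene of the gamma-delta receptor, had 187 CPM in HFD and 290 CPM in CD (log2 ratio -0.64). Those with Cd4 alone had 109 CPM in HFD and 198 CPM in CD (-0.85), and those with Cd8a alone 55.1 CPM in HFD and 108 CPM in CD (-0.97). Before thinning, however, 17.1% of the Cd8a-only T cells held Ccr2 in HFD (11.9 to 23.4%) and 12.5% in CD (7.58 to 19.0%). These intervals overlapped, and the shares were not matched for depth, with medians of 6498 UMIs in HFD and 4473.5 UMIs in CD. T cells with none or several of these genes had 76.1 CPM in HFD and 144 CPM in CD (-0.92), and all 4 intervals lay below 0. B-cell markers in T cells summed to 580 CPM in HFD and 2063 CPM in CD, dendritic-cell markers to 23.4 CPM in HFD and 52.7 CPM in CD, and Folr2-macrophage markers to 150 CPM in HFD and 285 CPM in CD. The part of the dendritic-cell and macrophage markers in the lower Ccr2 was not tested. Without T cells with 2 or more B-cell marker UMIs the log2 ratio of Ccr2 was -0.83.

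Thinned T cells with a Ccr2 UMI also differed from those without in markers of other lineages. Folr2-macrophage markers summed to 214 CPM in positive and 57.4 CPM in negative HFD T cells, and to 759 and 81.9 CPM in CD. Dendritic-cell markers summed to 13.0 CPM in both groups of HFD T cells, from 2 UMIs in the positive ones, and to 108 CPM in positive and 9.97 CPM in negative CD T cells. The T-cell markers summed to 870 CPM in positive and 968 CPM in negative HFD T cells, and their part and that of the other lineages in the ranks below was not tested. The 5 genes with the highest ratios to Ccr2-negative T cells in HFD were Scart1, a scavenger receptor-like gene of gamma-delta T cells (log2 4.47), Ltb4r1, the leukotriene B4 receptor (4.26), Osbpl3 (3.50), and the ion-channel genes Tmem176a (3.34) and Tmem176b (3.33). Positive T cells numbered 77 in HFD and 158 in CD. In CD the log2 ratio was 1.91 for Scart1, 1.74 for Osbpl3, 1.69 for Tmem176a and 1.89 for Tmem176b, and Ltb4r1 had 206 CPM in positive and 51.3 CPM in negative T cells. These genes were ranked on the HFD cells, and their HFD ratios are a description. Tmem176b was found in 53.2% of positive HFD T cells and in 67.1% of positive CD T cells.

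Ccr2 was higher in HFD in barcodes of no class, although lower in contig barcodes (10.8 CPM in HFD and 19.9 CPM in CD). Barcodes of no class, 704 in HFD and 2683 in CD, had 214 CPM in HFD and 104 CPM in CD (log2 ratio 1.04, 0.92 to 1.15). Within them, barcodes with 2 or more UMIs of the dendritic-cell genes Cd209a and Flt3 had 481 CPM in HFD and 408 CPM in CD (0.24, 0.04 to 0.43), and those with the natural killer genes Ncr1 and Klrb1c had 456 CPM in HFD and 366 CPM in CD. Barcodes with B-cell markers had 69.5 CPM in HFD and 40.7 CPM in CD, and made up 75.3% of this pool in HFD and 87.2% in CD. The remaining barcodes, 70 in HFD and 142 in CD, had 866 CPM in HFD and 707 CPM in CD (0.29, 0.09 to 0.50). Each sub-pool thus differed less between the diets than the whole pool did. These sub-pools were cut after the values were seen.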

How the data were processed

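Peritoneal CD45+ cells of HFD and CD mice gave 1 droplet expression library and 1 B-cell receptor library each. UMI counts per gene and barcode were used as deposited by the authors, made with Cell Ranger 8.0.1 per the file headers; Cell Ranger 6.0.1, Seurat 4.3.0 and the build mm39 are listed by the submitters' processing notes. Library preparation used a 3' v3.1 kit, per the labels' protocols. The labels' treatment note puts both groups on the high-fat diet, whereas titles, treatment labels and the design text separate them, and these were followed. Depth was 57630074 UMIs over 6897 barcodes in HFD and 73549582 UMIs over 13227 barcodes in CD.

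A barcode was kept where it had 300 genes or more and no more than 10% of its UMIs from mitochondrial genes. No doublet caller was run: 50 HFD and 101 CD barcodes that met a macrophage rule and the T-cell rule were left out, and alternatives removed barcodes with markers of another lineage. UMIs were summed per class and given as CPM, with exact Poisson intervals, an exact conditional interval for ratios, Clopper-Pearson intervals for shares and Newcombe intervals for differences. Called means 2-fold or more with 20 or more UMIs over both sums. Ratios and thinning were tested on simulated data. Python 3.11.15, numpy 2.4.6, scipy 1.17.1, pandas 2.3.3 and matplotlib 3.10.9 were used.

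Members, lists and rules were chosen with earlier results of these data known. Named genes were the members; the 10 highest by ratio in Ccl2- or Ccl7-positive large macrophages (50 or more UMIs, in 10% or more of positive barcodes in HFD); the 5 highest in Ccr2-positive T cells (20 or more UMIs); and the 3 highest and 3 lowest of each list. Values of some list genes, and sums that need them, are not reported here.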

Additional observations from a re-analysis of the deposited data

Results flagged for a closer look

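3 of the 7 genes had diet ratios of opposite sign in different pools of barcodes, each with a counting interval clear of 0. The difference between the pools was not tested, since each diet had 1 library.

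Cxcl1 had a log2 ratio (HFD over CD) of 2.37 in barcodes of no class, where 1 HFD barcode held 35 of 48 UMIs, but -0.169 in large macrophages, -0.698 in Folr2 macrophages and -1.07 in contig barcodes.

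Cxcl2 had 0.386 in large macrophages, 0.257 in Folr2 macrophages, 0.61 in T cells and 0.929 in barcodes of no class, but -0.412 in contig barcodes. In contig barcodes 1 HFD barcode held 190 of 1246 Cxcl2 UMIs.

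Ccr2 had 1.04 in barcodes of no class, but -0.852 in large macrophages, -1.25 in Folr2 macrophages, -0.938 in T cells and -0.88 in contig barcodes. B-cell-marker barcodes made up 75.3% of the barcodes of no class in HFD and 87.2% in CD.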

How the results depend on the processing

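No paired analysis was possible because each diet had 1 expression library, so there was also no replicate to leave out. Every log2 ratio and detection difference of Ccl2, Ccl7 and Ccl3 in large macrophages was above 0 under each alternative that gave a value, but some differences became small. That of Ccl7 lay outside its counting interval in 8 of 16 alternatives, with a range of 1.959 points (at 1000 UMIs) to 6.64, and was 3.06 (-0.89 to 12.7) without cell cycle UMIs. That of Ccl3 ranged from 0.11 (-3.03 to 2.90, at 10000 to 20000 UMIs) to 5.50 points. The depth bins, the 7-gene proliferation filter and the removal of the top 1% of barcodes were chosen after seeing the data; removing the top 1% took 23.2% of Ccl2 and 33.0% of Ccl7 UMIs from HFD large macrophages, against 48.6% and 73.4% from CD ones, so it raised the ratio by construction. Where other values moved, the cause was not tested.

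The log2 ratio of Ccl2 in large macrophages was 2.03 with barcodes thinned and then summed, 2.17 in barcodes of 5000 to 10000 UMIs and 3.05 without the top 1%. That of Ccl7 was 1.90 without barcodes with 2 or more B-cell marker UMIs or any Cd3 UMI. It was 3.14 thinned and then summed, 3.61 without the top 1% and 2.93 with no B-cell marker or Cd3 UMI at all. The Ccl2 detection difference was 4.82 points at 1000 UMIs, 11.2 at 4000, 8.67 without cell cycle UMIs, 4.50 at depths of 5000 to 10000 and 8.52 at 10000 to 20000. The co-detection ratio of Ccl2 and Ccl7 was 0 without cell cycle UMIs, where 71 HFD large macrophages were left.

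In large macrophages 2 members were higher without barcodes with 2 or more B-cell marker UMIs or any Cd3 UMI, and 2 without cell cycle UMIs. In both of those filters 1 member was lower. The same count was lower with the markers at 10 UMIs or more, without the 7 proliferation genes, at 10000 to 20000 UMIs and without the top 1%. With no B-cell marker or Cd3 UMI at all, the log2 ratios of Ccl2, Ccl7, Ccl3 and Ccl4 were 2.74, 2.93, 1.48 and 2.21, beyond 2-fold. In Folr2 macrophages 0 were higher or lower without cell cycle UMIs, where 1 HFD barcode was left; 0 were lower with 2-lineage barcodes kept, and 2 with Folr2 and Cbr2 at 5 or more, without the 7 genes and at both depth ranges. In T cells 2 were higher at 800 genes and 5% mitochondrial UMIs, with 2-lineage barcodes kept and with Cd3 genes at 4 or more; 0 without cell cycle UMIs, thinned and summed, at a minimum of 50 UMIs, at both depth ranges and without the top 1%; 1 was lower without cell cycle UMIs and without the top 1%, and 2 at 10000 to 20000 UMIs.

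Directions turned for sparse values. Ccl4 in large macrophages at 10000 to 20000 UMIs had a log2 ratio of -0.057 and a detection difference of -0.53 points. In Folr2 macrophages without barcodes with 2 or more B-cell marker UMIs or any Cd3 UMI, the Ccl4 difference was -0.15. The Ccl2 difference in T cells was -0.0075 with 2-lineage barcodes kept, -2.5 without cell cycle UMIs, -0.10 without the 7 genes and -0.36 at 5000 to 10000 UMIs.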
